A study of Drosophila melanogaster with 20 samples.

Results

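Sorted neurons of the adult Drosophila melanogaster brain were compared with whole brain on 10 of the 20 arrays of a study, namely the 5 labelled neurons and the 5 labelled all CNS cells. The study measured 4 sample types, and its title places the interest in the surface glia that form the blood-brain barrier. The whole-brain arrays each came from 5 brains of Canton S, a wild-type laboratory strain. The neuron arrays came from flies labelled ELAV-GFP, a name that pairs green fluorescent protein with elav, the gene of a neuronal RNA-binding protein, with no further account of the transgene, and each array held cells sorted by fluorescence from 10 to 15 brains. Both groups pooled males and females of the adult stage, and their age in days is not given in the labels. For the neurons, brains were treated with collagenase at 2 mg/mL at 37 °C while shaken at 1000 rpm for 20 min, then filtered and sorted. The labels give no separate protocol for the whole brains, so genotype, dissociation at 37 °C and sorting cannot be told apart from cell type in any difference reported here. The remaining sorts serve below only for side-by-side levels. Their cells were marked REPO-GFP (all glia, shaken at 500 rpm for 20 min) or 9.137-GFP (surface glia, 500 rpm for 5 min).

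An insect brain holds neurons, whose cell bodies lie in an outer rind, and several kinds of glia. Cortex glia wrap the cell bodies, astrocyte-like and ensheathing glia fill and border the synaptic neuropil, and perineurial and subperineurial glia form a barrier at the surface. Neurons send their signals through small-molecule transmitters and through peptides, many of which are made by a handful of large neurosecretory cells. Sorting by fluorescence takes single cells from a dissociated brain and keeps those that carry the marker.

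The values are log2 expression levels of Affymetrix probe sets, as deposited. After control probe sets were set aside, 18769 probe sets were tested with limma, and 13647 of them named 1 gene each and stood for 11982 genes, with the brightest probe set taken for a gene that had several. A gene is written as having risen or fallen only where its adjusted p (Benjamini-Hochberg, over all probe sets) was under 0.05 and its means differed by at least 1 on the log2 scale. Differences are given as neurons minus whole brain. The 44 probe sets against bacterial and tag sequences served as a floor. Their 95th percentile averaged 3.73 on the whole-brain arrays and 4.40 on the neuron arrays, and a gene at or under it on all 5 arrays of a group is given a fold of "at least" that size, computed against it. For 14 of the genes named below that fell, the neuron mean lay under that percentile although at least 1 neuron array lay above it, and their differences are of uncertain size.

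The arrays of each group were alike, the neuron arrays less so. Pairs of whole-brain arrays correlated at 0.993 to 0.997 and pairs of neuron arrays at 0.966 to 0.978, and the median probe set had an SD of 0.15 over the 5 whole-brain arrays and of 0.27 over the 5 neuron arrays. Probes at the 3′ end of the eIF-4a control transcript exceeded those at its 5′ end by 2.25 ± 0.23 in whole brain and by 4.96 ± 0.47 in neurons (mean ± SD of the log2 difference, n = 5 each), and the GAPDH control gave 3.22 ± 0.15 and 4.52 ± 0.53. The RNA read on the neuron arrays was thus more weighted to 3′ ends. This measure of RNA quality moved with the groups in every comparison below, and its part in them was not tested. The design text places the sorted replicates in different growth bottles and on different days, and says nothing of this kind for the whole brains, whose spread may be partly technical.

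The sort was checked first on the fixed markers. elav stood at 12.86, 12.84, 12.71, 12.71 and 12.77 on the 5 whole-brain arrays and at 13.14, 13.15, 13.11, 12.97 and 12.84 on the 5 neuron arrays, a difference of 0.26 (SE 0.09) that stayed under the minimum size. nSyb, the synaptic vesicle fusion protein, differed by −0.03 and brp, a scaffold of the presynaptic active zone, by 0.21, and neither passed. elav, nSyb and brp were thus close to their whole-brain level. Among channel genes also set as neuronal markers, cac differed by 0.35 and was not called. The sodium channel gene para fell by 1.02, close to the minimum size. The other probe sets of brp differed by 1.08, −0.82 and 0.65, so its value depends on the part of the transcript that is probed. The glial markers differed far more. repo, the transcription factor of nearly all glia, read 9.63, 10.01, 10.29, 10.19 and 10.45 in whole brain and 6.38, 4.30, 5.57, 6.63 and 5.21 in neurons. Every neuron array lay below every whole-brain array, and repo fell by 4.50 (SE 0.38, adjusted p = 2.59e-06), a 22.6-fold lower mean. The glial marker was thus low, as the label neurons says. elav was also high in the glial sorts (below), so its presence does not check the sort. Of the 21 fixed markers, 16 had a probe set of their own.

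**Figure D1:**
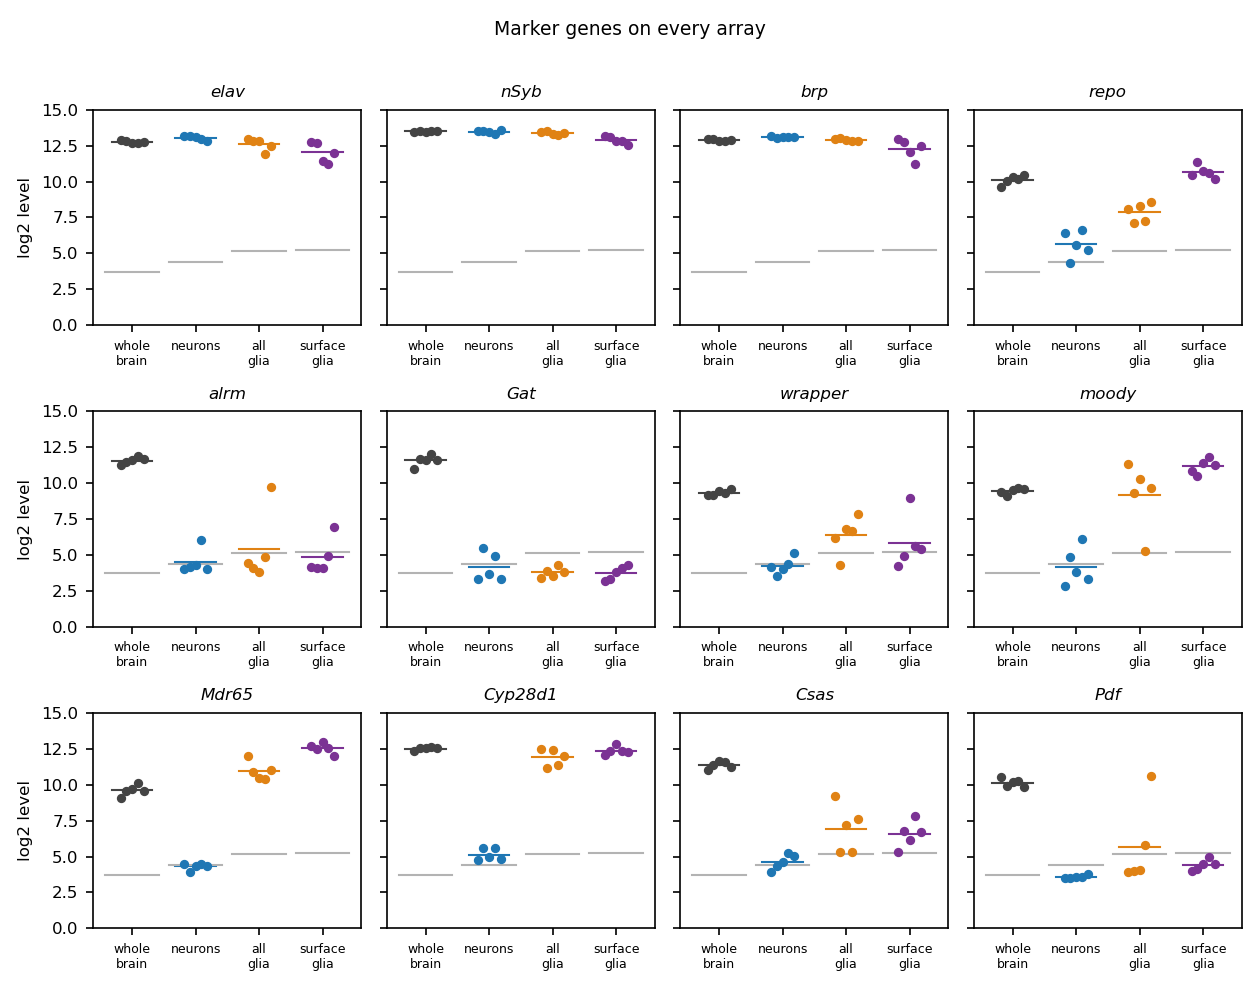
Log2 level of 12 marker genes on every array, 1 point per array and 5 arrays per group, with short bars at the group means, for whole brain, sorted neurons, all glia and surface glia; the grey line marks the mean 95th percentile of the negative controls in each group. elav, nSyb and brp lay close together in whole brain and neurons, while repo, alrm, Gat, wrapper, moody, Mdr65, Cyp28d1, Csas and Pdf were lower on all 5 neuron arrays than on any whole-brain array.

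Falls were larger than rises and, on the values as deposited, more frequent. In sorted neurons 1556 of 11982 genes fell (13%) and 782 rose (6.53%), and these shares are the background for every list below. A fall of at least 3 on the log2 scale was seen for 226 genes and a rise of that size for 14. For 160 of the genes that fell, the neuron arrays all lay within the negative controls. Counted over probe sets, 1240 rose (6.61%) and 2277 fell (12.1%), so that 64.7% of the calls were falls. That share depends on the scaling. The median probe set was 0.27 higher in neurons. The falls made up 49.7% of the calls after the arrays were centred on their medians and 92% after they were shifted to equal negative controls. Either scaling moves the differences of all probe sets alike and by less than the minimum size, so it could change no sign among the 2338 called genes. The genes named here that rose or fell were 154 in number, para not counted. Of these, 152 kept their call after centring, 134 after the shift to the negative controls and 138 in a fit of all 20 arrays. The negative controls themselves were 0.50 higher in neurons (median), and 0 of 44 passed the same rule. In samples of mixed cells, fewer cells of a type and less RNA per cell cannot be told apart. Near the minimum size, the called gene closest to it was Atg4b at 1.00 and the closest uncalled gene with an adjusted p under 0.05 was mwh at 0.998.

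**Figure D2:**
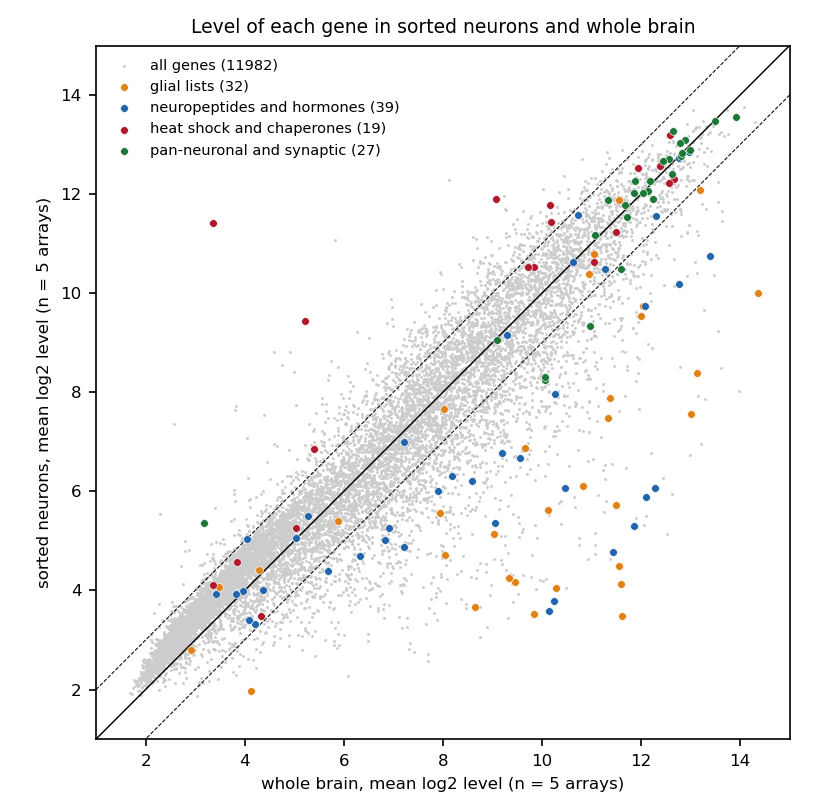
Mean log2 level of each of the 11982 genes over the 5 whole-brain arrays (horizontal axis) and the 5 neuron arrays (vertical axis), with the diagonal of equal level and dashed lines 1 log2 unit to either side. Genes of the pan-glial, astrocyte-like and ensheathing, and cortex glia lists and of the neuropeptide list lie mostly below the lower dashed line, the 6 heat shock genes that rose lie above the upper one, and most pan-neuronal genes lie between the dashed lines.

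Genes of astrocyte-like and ensheathing glia had the lowest median difference of the lists with at least 10 measured genes. Of 16 measured, 13 fell and 0 rose, with a median difference of −3.69 against 0.22 for all genes. Gat encodes the plasma membrane GABA transporter that clears the transmitter into astrocyte-like glia. It read 10.99, 11.70, 11.59, 12.02 and 11.64 on the whole-brain arrays and 3.31, 5.46, 3.68, 4.94 and 3.30 on the neuron arrays. The groups lay far apart, and Gat fell by 7.45 (SE 0.41, adjusted p = 8.53e-08), with 2 of 5 neuron arrays above the controls and thus by an uncertain size. alrm, a leucine-rich repeat protein that marks astrocyte-like glia, read 11.23, 11.44, 11.58, 11.87 and 11.69 in whole brain and 4.01, 4.14, 4.27, 6.05 and 4.03 in neurons. It fell by 7.06 (SE 0.35, adjusted p = 3.78e-08), again without overlap. Neuron replicate 4 stood above the other 4, which lay within the negative controls, so the size of this fall is uncertain too. The sodium-solute symporter genes rumpel, bumpel and kumpel all fell, kumpel by 3.90. The neuron arrays of rumpel and bumpel lay within the negative controls, so rumpel was at least 43.6-fold and bumpel at least 19-fold lower. Others that fell were e (−2.78), whose enzyme ebony couples β-alanine to histamine and dopamine, the odorant-binding protein gene Obp44a (−4.36), the fatty acid binding protein gene fabp (−2.45), the lipid phosphatase gene wun2 (−2.37), the axotactin gene axo (−3.49), and CG1552 (−5.45) and CG31663 (−4.73), to which no role is given here. The other probe sets of axo differed by −3.61, −2.44 and 0.18. Gs2, a glutamine synthetase, showed the smallest fall at −1.12, and without neuron replicate 2 its difference of −0.93 missed the minimum.

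All 4 genes of the cortex glia list fell. CG40470, to which no role is given here, read 11.33, 11.57, 11.73, 11.66 and 11.77 in whole brain and 2.87, 6.25, 2.57, 3.05 and 2.68 in neurons. Its means differed by −8.13 (SE 0.60, adjusted p = 8.49e-07). Neuron replicate 2 lay far above the other 4 neuron arrays, which all lay within the negative controls, so the size of this fall is uncertain. zyd, a sodium/calcium/potassium exchanger that sets calcium in cortex glia, differed by −6.24, wrapper, an immunoglobulin-domain surface protein, by −5.09, and ltl, an extracellular leucine-rich repeat protein, by −3.34. The pan-glial list showed 8 falls among 13 genes and 0 rises. Beyond repo these were the gap junction genes Inx2 (−5.76) and ogre (−3.85), moody (−5.29), the glial bnb (−4.74), the sodium pump β-subunit gene nrv2 (−2.29), the junction protein gene Gli and Gs2, which both lists hold. The neuron arrays of Gli all lay within the controls and its whole-brain mean of 4.13 lay under the control percentile of the neurons, so no size is given for its fall.

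In the list for surface glia and the barrier, 30 genes were measured, of which 19 fell and 0 rose, with a median difference of −2.14. moody, a G protein-coupled receptor that organises the barrier's junctions, and Mdr65, a drug efflux pump of the ABC family, are defining genes of the subperineurial layer. Mdr65 read 9.10, 9.54, 9.73, 10.11 and 9.59 in whole brain and 4.51, 3.90, 4.37, 4.48 and 4.31 in neurons, and it fell by 5.30 (SE 0.18, adjusted p = 1.98e-09). The collagen IV chains of the basement membrane, Col4a1 and vkg, differed by −5.83 and −4.60. CG3168, to which no role is given here, differed by −5.86, and Indy, a citrate transporter, by −4.40, at least 7.71-fold lower. Within the wider matrix list, 9 of 26 genes fell, among them Ppn (−3.36, at least 4.27-fold lower) and SPARC (−3.16), while Itgbn, an integrin β-subunit, rose by 1.25 and Mp, a collagen of the XV/XVIII type, by 1.26. The other probe set of Mp differed by 0.25. Septate junction genes were mostly not called, with 5 falls (17.9%) and 3 rises (10.7%) in 28, against 13% and 6.53% of all genes. The largest of those rises was Tsf2 (1.82), a transferrin needed for septate junction assembly.

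Glial genes that were all low in sorted neurons differed in the sorted glia. Gat averaged 3.78 ± 0.34 on the all-glia and 3.74 ± 0.48 on the surface-glia arrays (SD, n = 5 each), against a control percentile of 5.15 and 5.23 there, and alrm averaged 5.38 ± 2.44 and 4.84 ± 1.21. The levels of Gat were thus near the floor in all 3 sorts and high only in whole brain. Mdr65, in contrast, averaged 10.97 ± 0.65 in all glia and 12.54 ± 0.35 in surface glia, against 9.61 ± 0.36 in whole brain. Over the whole astrocyte-like and ensheathing list the median level came to 11.21 in whole brain and 6.49 in neurons, and to 7.05 and 6.98 in the all-glia and surface-glia sorts. Over the surface glia and barrier list the order was different, at 7.99, 4.53, 8.28 and 9.77. elav averaged 12.60 ± 0.41 in all glia and 12.02 ± 0.69 in surface glia, close to its level in neurons, so this neuronal marker did not set the glial sorts apart. The sorted glia differed from the neurons in genotype and shaking as well, and these levels are set side by side without a test.

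In the lists for chemical defence and transport, falls outnumbered rises, as they did over all genes. Falls made up 28.7% of the cytochrome P450 genes and 24.3% of the transferase genes. They made up 26.9% of the amino-acid and 41.7% of the ABC transporter genes, against 13% of all genes. The median differences, in the same order, were 0.108, 0.145, −0.206 and −0.82, against 0.222 for all genes. Cyp28d1, a cytochrome P450, read 12.33, 12.54, 12.53, 12.66 and 12.54 in whole brain and 4.73, 5.57, 4.96, 5.59 and 4.82 in neurons. It fell by 7.39 (SE 0.18, adjusted p = 2.56e-10), and averaged 11.90 ± 0.61 in all glia and 12.38 ± 0.28 in surface glia. Of 80 cytochrome P450 genes, 23 fell and 0 rose, and 27 lay within the controls in both groups. Cyp28a5 (−5.68), Cyp4g15 (−5.09) and Cyp12a4 (−4.67) followed Cyp28d1 in size. In the list of glutathione and UDP-glycosyl transferases, 17 of 70 fell, led by Ugt35B1 (−6.44), GstE2 (−5.24) and GstD9 (−5.20), and 3 rose, led by GstD11 (2.12). Amino-acid transporter genes gave 7 falls in 26, with CG7888 at −6.74, CG16700 at −4.98, at least 9.87-fold lower, ine, a neurotransmitter transporter relative, at −4.46 and mnd, a leucine transporter, at −3.48. ABC transporter genes gave 5 falls in 12 and 1 rise, that of Mdr50, for which 2 of 5 neuron arrays lay above the controls, so no size is given. Csas, the enzyme that activates sialic acid for transfer to glycoproteins, read 11.01, 11.37, 11.68, 11.56 and 11.23 in whole brain and 3.95, 4.37, 4.61, 5.22 and 5.05 in neurons. It fell by 6.73 (SE 0.23, adjusted p = 1.98e-09) and averaged 6.93 ± 1.66 in all glia and 6.57 ± 0.91 in surface glia.

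Lipid handling and fuel genes fell in part. Of 38 genes for lipid carriers and lipid droplets, 15 fell and 0 rose. Acbp2, an acyl-CoA binding protein, differed by −5.28, at least 32.2-fold lower, Lsd-2, the perilipin that coats lipid droplets, by −4.86, and GLaz, a lipocalin of glia related to apolipoprotein D, by −3.52. Npc2b (−3.32) and Npc1a (−3.30), which move sterols out of lysosomes, also fell. In the glycolysis list 7 of 19 genes fell and 0 rose. The falls were led by Treh (−4.26), which splits trehalose, the main blood sugar of insects, then Mdh1 (−3.47), Hex-C (−2.57) and the glycogen enzymes Glyp (−2.32) and AGBE (−2.06). Pgk, a kinase of the central pathway, differed by −1.27.

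**Figure D3:**
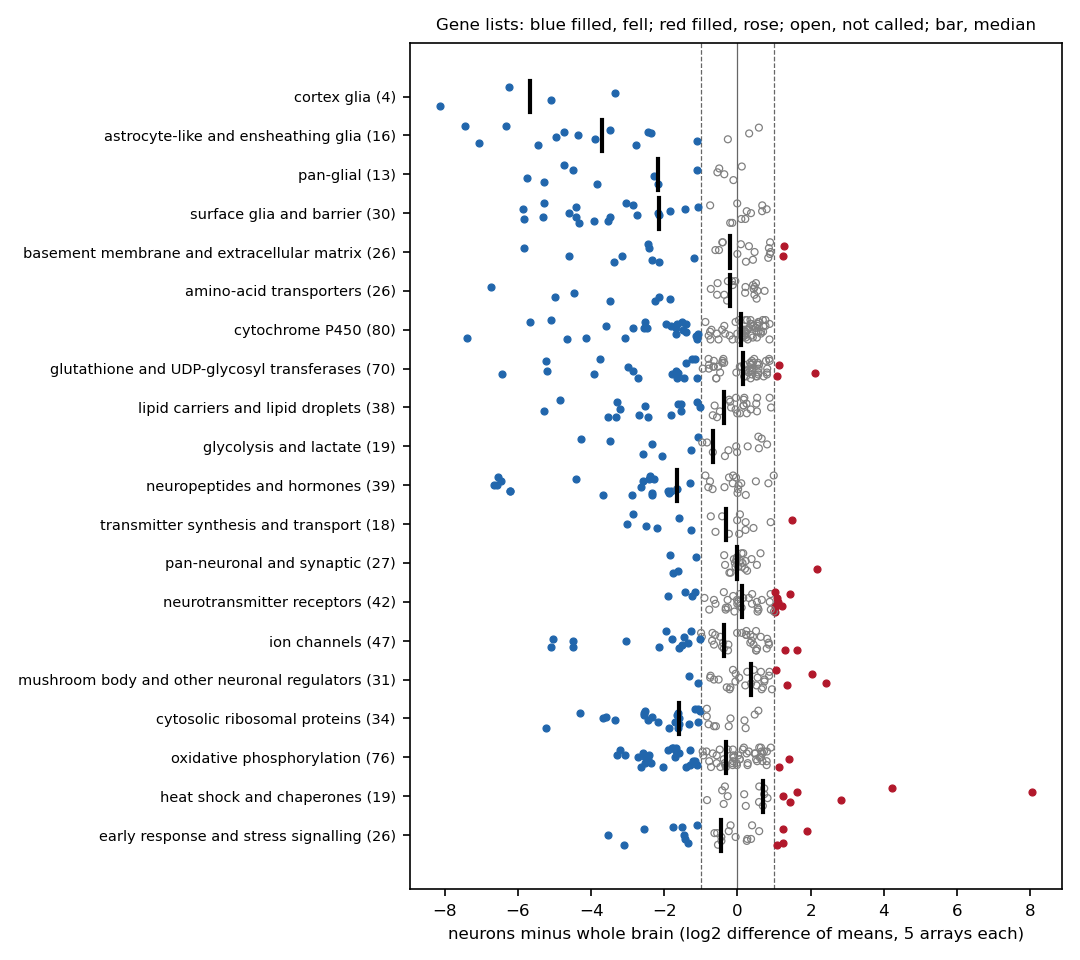
Difference of each measured gene (neurons minus whole brain, log2) in 20 of the gene lists, 1 point per gene, with filled points for genes that rose or fell and open points for the others; the short bar is the list's median and the dashed lines mark 1 log2 unit. The glial, neuropeptide and cytosolic ribosomal lists lie mostly to the left of 0, and the heat shock list mostly to its right.

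The list of neuropeptides, hormones and their processing enzymes gave 21 falls in 39 genes and 0 rises, with a median difference of −1.65. Ilp2 and Ilp5 encode insulin-like peptides made by median neurosecretory cells. Ilp2 read 11.80, 11.86, 11.96, 11.75 and 11.94 in whole brain and 4.45, 4.77, 6.33, 6.27 and 4.72 in neurons, and fell by 6.55 (SE 0.36, adjusted p = 7.68e-08). Ilp5 differed by −6.65 (SE 0.17, adjusted p = 2.58e-10). Pdf, the peptide of the ventral clock neurons, read 10.52, 9.91, 10.19, 10.27 and 9.84 in whole brain and 3.50, 3.51, 3.57, 3.59 and 3.75 in neurons. All of its neuron arrays lay within the negative controls, so Pdf was at least 53.9-fold lower (adjusted p = 9.36e-11). Trissin, a cysteine-rich peptide, was at least 57.3-fold lower by the same measure. Orcokinin (−6.22), the ion transport peptide gene ITP (−6.22), the corazonin gene Crz (−4.41) and NPF (−3.68), the fly relative of neuropeptide Y, also fell. The remaining falls ran from −2.87 for SIFa to −1.30 for CCAP, the crustacean cardioactive peptide.

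Not every peptide gene fell. sNPF, a peptide of many neurons including the mushroom body cells, differed by 0.85, and the bursicon subunit gene Burs by 0.99, both upward and under the minimum size, which Burs passed without neuron replicate 2 or 3 (1.08 and 1.10) and without whole-brain replicate 3 or 4 (1.01 and 1.02). Among the enzymes that process peptides, amon (the prohormone convertase), Pal2 and Phm (peptide amidation) differed by −0.12, −0.04 and 0.00 and were not called, while svr, a carboxypeptidase, fell by 1.89. In the glial sorts Ilp2 averaged 5.54 ± 2.19 and 5.62 ± 1.10 and Pdf 5.67 ± 2.88 and 4.40 ± 0.39 (all glia and surface glia), and 1 all-glia array of Pdf reached 10.63. ITP, in contrast, averaged 9.83 ± 0.81 and 11.80 ± 0.29 there, the latter near its whole-brain mean of 12.09, and Crz averaged 7.59 ± 2.59 and 5.81 ± 3.39. Genes of the clock list other than Pdf gave the falls of Clk (−2.62) and the photoreceptor gene cry (−1.45), and of Dh31-R (−1.14), whose other probe set differed by 0.18, so that 4 of 20 fell and 0 rose.

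**Figure D4:**
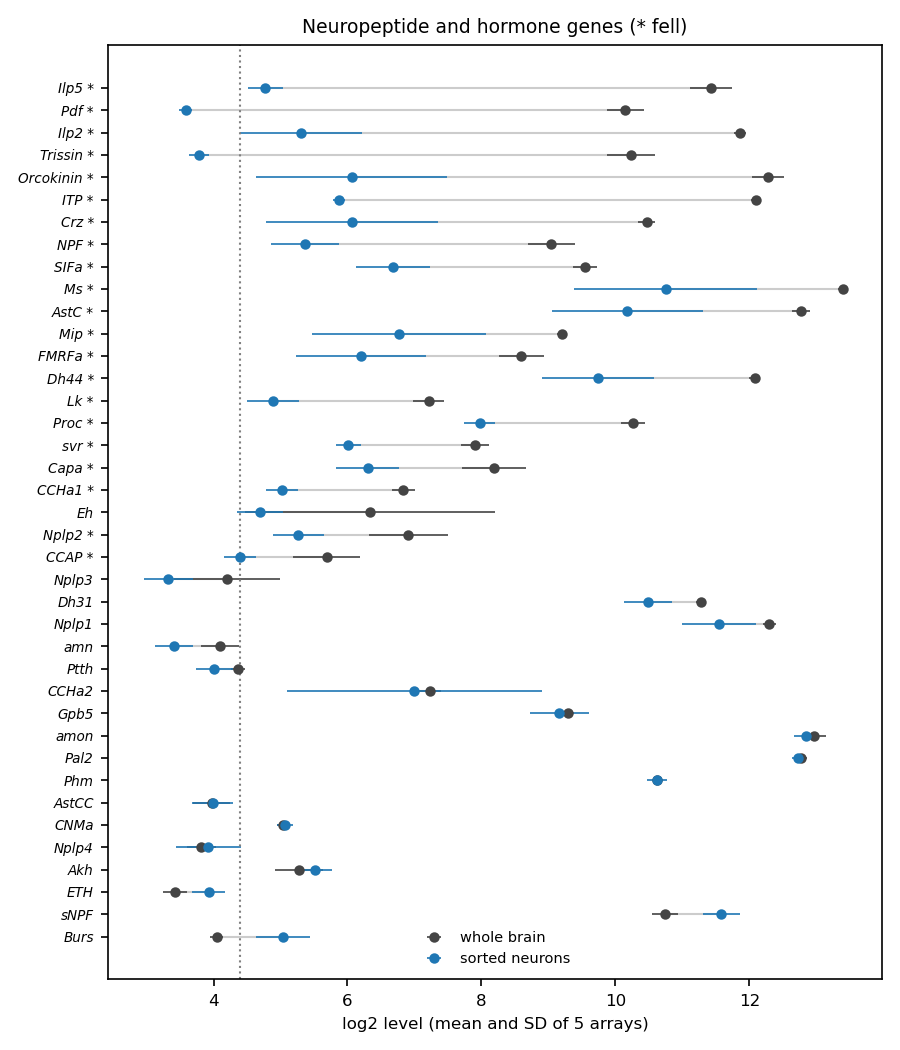
Mean log2 level of the 39 measured neuropeptide and hormone genes in whole brain and in sorted neurons (5 arrays each, bars are SD), ordered by their difference; the dotted line is the mean 95th percentile of the negative controls in neurons. 21 genes fell and none rose, and Ilp5, Pdf, Ilp2, Trissin and Orcokinin stand at the top.

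Genes of small-molecule transmission fell in part. In the list of transmitter synthesis and transport, 6 of 18 fell (33.3%, against 13% of all genes) and 1 rose (5.56%, against 6.53%). For acetylcholine, the main excitatory transmitter of the fly brain, ChAT differed by 0.44 and VAChT by −0.01, neither called. For GABA the vesicular transporter gene VGAT read 10.80, 10.93, 10.76, 10.81 and 10.83 in whole brain and 9.32, 8.37, 9.26, 8.40 and 7.73 in neurons, and fell by 2.21 (adjusted p = 3.84e-05), while the synthetic enzyme gene Gad1 differed by −0.73 and was not called. The glutamate transporter gene VGlut differed by −2.86 on the probe set that stands for it and by 0.19 on another, so its direction rests on the probe set. Among amine genes, Tbh (octopamine synthesis) differed by −2.49, SerT (serotonin uptake) by −1.59, Ddc (dopamine and serotonin synthesis) by −1.26, and all 3 fell. The amine genes DAT (0.91), ple (0.22), Vmat (0.22) and Tdc2 (−0.23) were not called, so the amine genes did not fall as a class. Hdc, the histidine decarboxylase that makes histamine, fell by 3.02, but its arrays overlapped between the groups. CarT, a carcinine transporter, was the 1 gene of the list that rose (1.48), with overlapping arrays.

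Of 27 pan-neuronal and synaptic genes, 22 were not called and the median difference was −0.01. The share that fell, 14.8%, was near the 13% of all genes, and 3.7% rose, against 6.53%. Those that fell were Nrx-1 (−1.83), the presynaptic neurexin, Rop (−1.77), a regulator of vesicle fusion, Rbp (−1.62), an active zone protein, and the RNA-binding Rbp9 (−1.12). Nlg1, a neuroligin that binds neurexin across the synapse, rose, at least 3.12-fold. The other probe set of Rbp9 differed by 0.85. Neurotransmitter receptor genes were among the few neuronal lists with more rises than falls, with 8 and 4 in 42. These were 19% and 9.52%, against 6.53% and 13% of all genes. Dop1R1, a dopamine receptor of the mushroom body, read 10.40, 10.36, 10.14, 10.24 and 10.36 in whole brain and 11.97, 11.43, 11.75, 11.53 and 11.99 in neurons, and rose by 1.43 (SE 0.13, adjusted p = 3.97e-06). The next in size were the glutamate receptor gene GluRIB (1.20), the muscarinic receptor gene mAChR-B (1.10), the serotonin receptor gene 5-HT1B (1.07) and the octopamine receptor gene Octbeta3R (1.05). These rises were close to the minimum size. Without neuron replicate 1 that of 5-HT1B came to 0.98, without neuron replicate 5 that of Octbeta3R came to 0.86, and both then missed it. The count of receptor genes that rose ran from 0 to 12 under the other scalings, filters and fits. GluRIB differed by −0.72 on its other probe set, 5-HT1B by −0.40 and Octbeta3R by 0.83, −0.42 and −0.94. nAChRalpha1 differed by −1.91 on the probe set that stands for it and by 1.25 on another, and nAChRalpha7, which fell, by −1.43.

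Among 47 ion channel genes, 14 fell (29.8%, against 13% of all genes) and 2 rose (4.26%, against 6.53%). The falls included potassium and chloride channels and a sodium channel subunit. Irk2 and Irk3, inward rectifiers, differed by −5.03 and −4.50, Ork1, an open leak channel, by −4.49, at least 7.54-fold lower, and ClC-a, a chloride channel, by −5.10, although its other probe set differed by 0.43. Teh3, an auxiliary subunit of the voltage-gated sodium channel, fell by 3.05, and para, the gene of that channel, by 1.02. Irk2 averaged 8.33 ± 0.78 in all glia and 9.00 ± 0.93 in surface glia against 5.34 ± 0.54 in neurons and 10.38 ± 0.30 in whole brain. Elk, a voltage-gated potassium channel, rose by 1.63 and Best1, a bestrophin chloride channel, by 1.31. Of 31 neuronal regulators, 4 rose (12.9%, against 6.53% of all genes) and 2 fell (6.45%, against 13%). Under the other scalings, filters and fits the rises ran from 2 to 7 and the falls from 0 to 6. ey, the Pax6 transcription factor kept by mushroom body neurons, read 8.91, 8.52, 8.47, 8.70 and 8.76 in whole brain and 11.42, 10.96, 11.22, 10.43 and 11.48 in neurons and rose by 2.43 (SE 0.19, adjusted p = 1.44e-06). dac, a nuclear factor of the same neurons, rose by 2.04, and mirr, a homeodomain protein, by 1.35, with 0.05 on its other probe set. dsx, the sex-determination factor, fell and was at least 1.57-fold lower. Without neuron replicate 3 or 5 the list had 1 fall.

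Many genes of the ribosome and some of the respiratory chain fell in sorted neurons. Of 34 cytosolic ribosomal protein genes with a probe set of their own, 23 fell and 0 rose, with a median difference of −1.60. RpS18 read 13.11, 13.18, 13.24, 13.08 and 13.19 in whole brain and 8.30, 7.71, 8.27, 7.35 and 7.95 in neurons, and fell by 5.24 (SE 0.17, adjusted p = 1.3e-09). RpL32 (−4.30), RpLP2 (−3.68), RpL23 (−3.60) and RpL34a (−3.34) came next. Oxidative phosphorylation genes gave 25 falls and 2 rises in 76. Among them RFeSP (−3.20), the iron-sulfur protein of complex III, and the complex I subunit genes ND-PDSW (−3.07) and ND-19 (−2.65) fell, and the complex III subunit gene UQCR-11 (1.42) rose with overlapping arrays. COX7C, of complex IV, differed by −3.28 on the probe set that stands for it and by 1.68 on another. The sorted glia also showed lower levels, with a median level over the ribosomal list of 10.53 in all glia and 11.17 in surface glia, set beside 12.16 for whole brain and 10.21 for neurons. Both lists hold short genes, with a median length in the reference of 1069 bp and 1094.5 bp including introns. Among 4847 genes with a mean level above 7, divided by length into 4 groups of equal size, the shortest group (305 to 1854 bp) had a median difference of −0.22 and 23.7% fell, against 15.3%, 15.9% and 17.1% in the longer groups. The part of gene length and of the 3′ weighting in the ribosomal falls was not tested.

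Heat shock and chaperone genes included the largest rise of the comparison, and no member of the list fell. In all 6 of 19 rose (31.6%, against 6.53% of all genes), with a median of 0.69. The other 13 were not called, and 5 of the 19 differed downward. CG4461, a small heat shock protein gene that the reference places between Hsp22 and Hsp26, read 3.32, 3.42, 3.25, 3.62 and 3.15 in whole brain and 11.67, 11.43, 11.27, 10.75 and 11.94 in neurons. All 5 whole-brain arrays lay within the negative controls, so CG4461 was at least 206-fold higher in neurons (adjusted p = 2.56e-10). It averaged 6.46 ± 1.64 in all glia and 6.06 ± 2.56 in surface glia, whose dissociation was also at 37 °C. Hsp27, a small heat shock protein, read 8.27, 9.39, 9.53, 9.59 and 8.61 in whole brain and 12.50, 11.82, 11.62, 11.27 and 12.29 in neurons, and rose by 2.82 (SE 0.30, adjusted p = 1.72e-05). Hsp26 rose by 1.61, stv, a BAG-domain co-chaperone of Hsp70, by 1.25, and l(2)efl, a small heat shock protein gene, by 4.22. The other probe sets of l(2)efl differed by 0.38 and 0.30, and those of Hsc70-1, a heat shock cognate gene (1.44), by 0.21 and 0.27, and were not called. Without neuron replicate 2 Hsc70-1 came to 0.99 and missed the minimum. The non-coding RNA lncRNA:alphagamma-element:CR32865, which the reference places between Hsp70Ba and Hsp70Bbb, rose by 4.16 (SE 0.23, adjusted p = 8.92e-08), and CG3281, which lies beside Hsp70Ab, by 2.93. In all glia and surface glia the alphagamma-element averaged 11.60 ± 0.16 and 11.85 ± 0.11, and Hsp27 11.29 ± 0.39 and 12.05 ± 0.51, so that both stood above whole brain in all 3 sorts. This did not hold for every gene that rose. l(2)efl averaged 5.25 ± 2.76 in all glia and 7.87 ± 2.82 in surface glia, against 5.21 in whole brain. stv averaged 10.37 and 11.19 there, against 10.18, so the all-glia means of both were close to whole brain. Some members of the list were bright in both groups. Hsp68 averaged 11.93 ± 0.70 in whole brain and 12.52 ± 0.42 in neurons, and DnaJ-1 12.59 ± 0.20 and 13.19 ± 0.14, and neither was called. Probe sets for Hsp70 name several copies at once and are not used here. A heat treatment of the whole brains is not given in the labels, so dissociation at 37 °C and cell type cannot be told apart here.

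**Figure D5:**
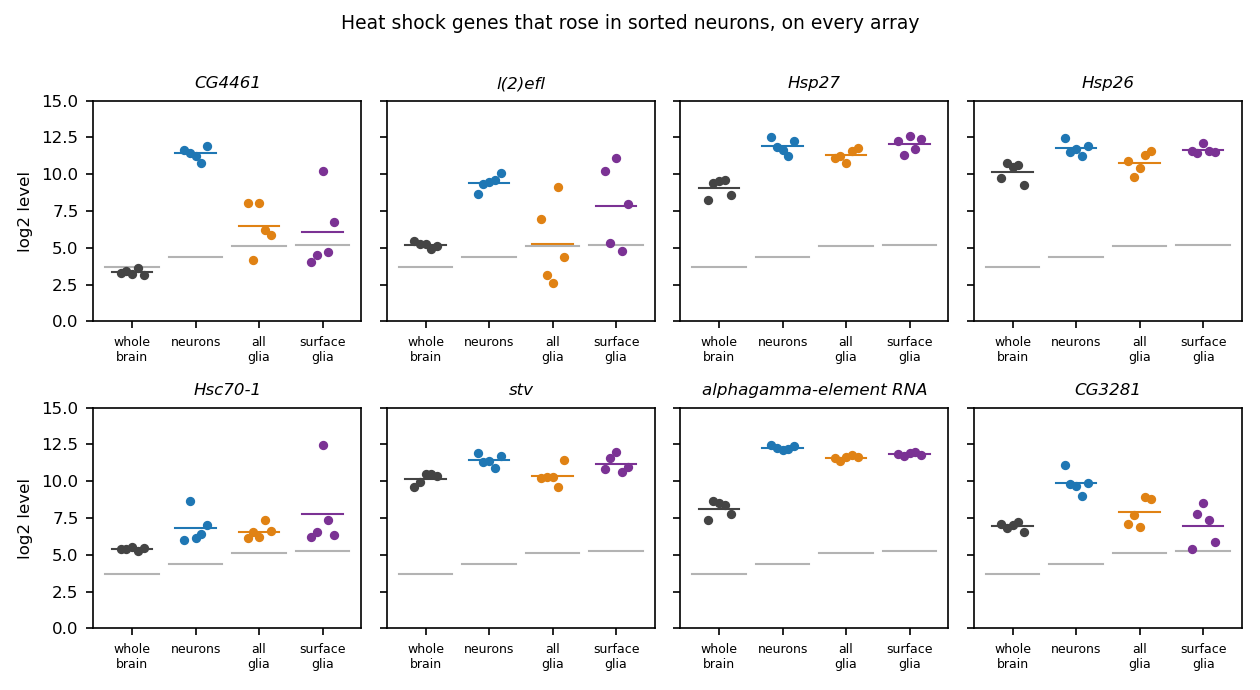
Log2 level on every array of the 6 heat shock and chaperone genes that rose and of the alphagamma-element RNA and CG3281, in whole brain, sorted neurons, all glia and surface glia (5 points per group, bars at the means); the grey line is the mean 95th percentile of the negative controls. CG4461 lies within the controls on all 5 whole-brain arrays and at 10.75 to 11.94 on the neuron arrays.

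The other large rises came from genes of varied roles. mthl8, a receptor of the methuselah family, was at least 12.5-fold higher, as its whole-brain arrays lay within the controls. CG6912 (5.26), the kinesin gene cmet (4.23), bt (3.91), which encodes the muscle protein projectin, the purine synthesis gene Prat2 (3.16), the DNA repair gene Rrp1 (3.04) and the monocarboxylate transporter gene Mct1 (2.94) were among the 15 largest. bt lies beside ey in the reference and both rose, while the gene on the other side of ey fell (−1.33). CG43117 rose by 3.42 although its neighbour in the reference, Pdf, fell. Genes of early response and stress signalling moved both ways, with 4 rises (15.4%) and 9 falls (34.6%) in 26, against 6.53% and 13% of all genes. The cell death activators skl and grim rose by 1.91 and 1.25, and Hr38, a nuclear receptor induced by neuronal activity, by 1.23, though the arrays of Hr38 overlapped. puc, the phosphatase induced by JNK signalling, rose by 1.08, and without neuron replicate 4 its difference of 0.92 missed the minimum. Falls included egr, the fly TNF ligand (−3.54), Arc1, an activity-regulated capsid-like protein (−3.11, other probe set −4.65), and ImpL2, an insulin-binding protein (−2.56). Among immune genes the NF-κB factor gene Dif (1.38) and its inhibitor gene cact (1.87) rose, and 4 of 30 fell, led by the serpin gene nec (−2.52). These shares, 6.67% and 13.3%, were close to those of all genes, 6.53% and 13%.

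Marker lists of cells outside the brain proper were measured as a check on adhering tissue. Fat body and yolk genes gave 6 falls in 21 (28.6%, against 13% of all genes), with Tsf1 (−3.91, other probe sets −5.50 and 0.06), the iron carrier, apolpp (−2.69), the lipophorin of the blood, and Yp1 (−1.62), a yolk protein of female fat body. Yp2 (−0.83), Yp3 (−0.35) and Lsp2 (0.32, within the controls in both groups) were not called. Yp1 averaged 10.39 ± 0.64 in all glia and 12.69 ± 0.41 in surface glia, against 8.89 ± 0.75 in whole brain. Photoreceptor and eye genes gave 8 falls (28.6%) and 3 rises (10.7%, against 6.53% of all genes) in 28. Its 2 largest falls were santa-maria (−4.81, at least 16.8-fold lower) and ninaB (−2.61), which take up and cleave carotenoids for visual pigment. Muscle genes gave 3 falls in 21 (14.3%), led by fln (−3.84, at least 7.41-fold lower), a flight muscle protein. Hemocyte genes gave 3 falls (15%) and 2 rises (10%) in 20. Both shares of falls were near the 13% of all genes. Hml, a hemocyte adhesion protein, read 5.26 ± 0.60 in whole brain and 3.94 ± 0.21 in neurons (SD, n = 5 each), within the controls in neurons, and so at least 1.83-fold lower. The other hemocyte markers set beforehand were not called. NimC1 differed by 0.32, eater by 0.26 and srp, within the controls in both groups, by −0.30. Chemosensory genes gave 1 fall in 30 (3.33%), and trachea genes 2 rises (14.3%) and 0 falls in 14. Without neuron replicate 2 the trachea list had 1 rise, and without neuron replicate 4 the hemocyte list also had 1. The median level of these 6 lists ran from 3.53 to 5.87 in whole brain and from 3.86 to 5.59 in neurons, where the control percentiles averaged 3.73 and 4.40. The highest of them in both groups was that of the fat body list, and the part of adhering tissue in the differences was not tested.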

How the data were processed

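Total RNA from 5 whole-brain samples and 5 samples of sorted neurons was amplified, labelled with biotin and hybridised to single-colour arrays, per the labels' protocols, of Affymetrix make by the names of their control probe sets. The authors deposited log2 expression values in 1 table for the series. Per the submitters' processing notes, RMA, affy and limma were used, with no versions given, and whether all arrays were normalized together is not given in the sources used here. The table was used as deposited, with no further background correction or scaling. Its 183 control probe sets were left out, and 18769 probe sets were fitted in R 4.3.3 with limma 3.58.1 (2 groups, 10 arrays, moderated test, Benjamini-Hochberg adjustment). Gene names come from the platform annotation, updated through a RefSeq gene table: 13647 probe sets name 1 gene, 402 several and 4720 none, and 11899 of 11982 genes were found in that table. No genome build is given for the table, so no coordinates or sequences are printed.

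Named genes are the 15 largest rises and 15 largest falls among called genes whose arrays do not overlap and whose brighter group lay above the controls on every array, up to 5 called members of each of 33 gene lists with up to 3 against its majority, all called members of the 3 glial lists, and fixed markers. 22 of the 165 genes named in the results were chosen after their values were seen. Not counted are para, cac and the uncalled genes DAT, ple, Vmat, Tdc2, NimC1, eater, srp, Yp2, Yp3, Lsp2, Hsp68 and DnaJ-1. These uncalled genes were added with their values known, to stand beside called members of their lists. The members and the lists were chosen with earlier results of these data known. The fit was tested on simulated data. Alternatives were other scalings, filters, a fit of all 20 arrays, the replicate block, variance and weight settings, the mean over a gene's probe sets, and each replicate left out. The number of arrays limits the precision.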

Additional observations from a re-analysis of the deposited data

Results flagged for a closer look

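Within each group of 5 arrays, a single array was set apart where its gap to the nearest other array was more than 0.71 of the group's whole range. This held for 19 of 340 groups of values examined (5.59%), and chance alone sets about 5% apart, so the number is close to that share. No explanation was examined for any of them.

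Among the neuron arrays, replicate 2 stood above the other 4 for CG40470 (6.25 against a mean of 2.79, a gap of 0.87 of the range) and fabp (9.93 against a mean of 9.45, a gap of 0.811 of the range). Replicate 4 stood above the others for alrm (6.05 against a mean of 4.11, a gap of 0.873 of the range), CG7888 (6.54 against a mean of 5.01, a gap of 0.731 of the range) and Tsf2 (9.75 against a mean of 9.49, a gap of 0.724 of the range) and below them for cact (10.62 against a mean of 11.27, a gap of 0.725 of the range). Replicate 3 stood above for Hdc (5.68 against a mean of 2.20, a gap of 0.721 of the range) and ND-PDSW (8.74 against a mean of 8.03, a gap of 0.797 of the range). Replicate 5 stood below for Gad1 (11.72 against a mean of 12.29, a gap of 0.867 of the range) and Rrp1 (5.64 against a mean of 7.44, a gap of 0.817 of the range), and replicate 1 below for mirr (7.50 against a mean of 8.82, a gap of 0.735 of the range) and dsx (3.41 against a mean of 3.79, a gap of 0.767 of the range).

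Among the whole-brain arrays, replicate 4 stood above the others for Gs2 (13.36 against a mean of 13.15, a gap of 0.826 of the range), e (9.95 against a mean of 9.59, a gap of 0.732 of the range), ine (9.92 against a mean of 9.43, a gap of 0.729 of the range) and Gad1 (a gap of 0.714 of the range). Replicate 5 stood above for Hr38 (10.58 against a mean of 8.55, a gap of 0.943 of the range) and grim (5.73 against a mean of 5.34, a gap of 0.786 of the range), and replicate 2 for Phm (10.69 against a mean of 10.60, a gap of 0.8 of the range). Each of the 5 neuron arrays of CG40470, alrm and CG7888 still lay below every whole-brain array.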

How the results depend on the processing

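The counts of probe sets that rose or fell, 1240 and 2277, moved with the scaling and with the minimum difference. The rises came to 1942 after centring on the array medians and to 348 after the shift to equal negative controls, where the falls came to 3991. The fit of all 20 arrays gave 712 rises. Without a minimum difference there were 8277 rises and 4307 falls. Leaving out 1 replicate at a time gave 1188 to 1328 rises and 2195 to 2333 falls. The shift moved the median difference of all probe sets by −0.50, centring by 0.14 and renewed quantile normalization by −0.13, with falls making up 57.7% of the calls in the last. Of the 2338 called genes, the fit of all 20 arrays kept 1672 and the shift kept 1768. None changed sign in any alternative that used 1 probe set per gene. Centring, the shift and the fits that leave the differences as they were could not change a sign. Of the genes named in the text, the fit of all 20 arrays ended the calls of 5-HT1B, Best1, CycB, Dif, Hr38, Hsc70-1, Itgbn, Rbp, SerT, UQCR-11, dsx, grim, mAChR-B, mirr, puc and skl, and the shift those of 5-HT1B, Best1, CarT, CycB, Dif, Dop1R1, GluRIB, Hr38, Hsc70-1, Itgbn, Mdr50, Mp, Octbeta3R, UQCR-11, fzr, grim, mAChR-B, mirr, puc and stv. The cause of these moves was not tested.

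Replicate numbers did not pair the samples: the deviations of same-numbered arrays correlated at −0.019 to 0.034, and 1 of 5 neuron arrays correlated best with its own number. With the replicate block 1247 probe sets rose and 2276 fell. Over the same scalings, filters and fits the number of genes that fell ran from 12 to 13 for the astrocyte-like and ensheathing list, from 7 to 9 for pan-glial genes, from 14 to 20 for surface glia and barrier genes, from 15 to 26 for neuropeptides, from 19 to 28 for cytosolic ribosomal proteins, from 24 to 33 for oxidative phosphorylation and from 11 to 30 for cytochrome P450 genes, and the number that rose from 4 to 6 for heat shock genes. With 1 replicate left out, the rises ran from 0 to 1 among cytochrome P450 genes, from 0 to 1 for the lipid list, from 0 to 1 for the surface glia list, from 3 to 5 for septate junctions, from 1 to 2 for ABC transporters, from 1 to 2 for oxidative phosphorylation, from 0 to 1 for neuropeptides, from 0 to 1 for fat body genes, from 0 to 1 for chemosensory genes, from 1 to 2 for muscle genes and from 0 to 2 for sex determination genes. Over the other scalings, filters and fits, the trachea rises ran from 0 to 2 and the hemocyte rises from 0 to 3. The amplified RNA of the neurons was weighted to 3′ ends and its arrays spread more. Signal at or under the negative controls gives bounds only.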

Other observations

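Several of the largest differences belonged to genes outside the lists. Tsp5D, a tetraspanin, differed by −6.60, CG31706 by −6.69 and CG31705 by −6.43, and the levels of Tsp5D averaged 8.71 ± 1.85 in all glia and 6.87 ± 2.67 in surface glia against 12.10 ± 0.20 in whole brain (SD, n = 5 each). Among the largest rises, CG12716 differed by 3.91, CG31219 by 3.85 and CG13482 by 3.79, and no role is given to these genes here.

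Of 15 cell cycle and growth genes, 3 rose (20%, against 6.53% of all genes), led by fzr (1.30), an activator of the anaphase-promoting complex that also acts in cells that have left the cycle. Another of them was the mitotic cyclin gene CycB (1.00), which read at or under the control percentile on all 10 arrays, and the number of rises ran from 0 to 3 under the other scalings, filters and fits. Among 13 genes of sex determination and dosage compensation, 4 fell (30.8%, against 13% of all genes) and 1 rose (7.69%), in groups that both pooled males and females. The rises came to 0 without neuron replicate 1 or whole-brain replicate 5 and to 2 without neuron replicate 2 or 5, and the falls ran from 3 to 5 with 1 replicate left out. No mitochondrially encoded gene had a probe set of its own.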
